A study of Saccharomyces cerevisiae with 4 samples.

Results

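Chromosome IX of budding yeast (Saccharomyces cerevisiae) carries the genes whose systematic names begin with YIL on the left arm and YIR on the right arm. The array measured 191 of them. IRR1, CCT2 and RNR3 were left out, which left 188 genes among 5449 measured in all, 150 on the left arm and 38 on the right. NCBI's table of genes for assembly R64 also places all 188 on this chromosome. They are described here because their transcript levels stood apart in 1 of the 4 arrays, so that shift chose them and is given without a test. Total RNA was hybridised to 4 arrays (Affymetrix Yeast Genome 2.0). The wild type, strain K699 (MATa), and strain Y3501 (MATa, wpl1∆::KAN) each contributed 2. In the second strain the gene of Wpl1, a cohesin-associated protein that helps release cohesin from chromosomes, is replaced by a KAN marker. Both strains grew exponentially in rich medium with 2% glucose. Arrays of the same replicate number share a date tag in the labels, so deletion and wild type were compared within replicate 2 and, as a control, within replicate 1. There was 1 array per genotype in each such comparison, so no value within a replicate has an error from replication. The labels name 1 strain per genotype and do not say whether its 2 arrays came from separate cultures or clones.

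In yeast, the transcript level of most genes follows the number of gene copies, and a chromosome present in extra copy is usually seen as a shift of nearly all its genes. Single genes can depart from the shift when their transcription is under feedback, when they respond to the state of the cell, or when a probe also detects copies elsewhere in the genome. DNA copy number was not measured in the data used here, and none of these causes was tested. Each array measured RNA from a whole culture, so a uniform difference in all cells and a larger one in some of them cannot be told apart.

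The value used throughout is the log2 level in the deletion minus that in wild type of the same replicate, less the median of this difference over genes of the other chromosomes. Genes were kept when their mean over the 4 arrays lay above 5.98, the mean of the 95th percentiles of the fission yeast (S. pombe) probe sets on the same arrays. This left 181 chromosome IX genes and 5002 genes of other chromosomes. Of the 181, 176 were also above the limit in each of the 4 arrays. Of the other 5, SGA1 and DCG1 were at background in both wild type arrays and were kept through the deletion arrays alone. RGI2 was at background in both arrays of replicate 1, MET28 in wild type replicate 2 and YIL014C-A in wild type replicate 1. At the limit itself, SGA1, a glucoamylase of sporulation, was just inside with a mean log2 level of 6.01. PRM2, a pheromone-regulated membrane protein, was just outside with 5.93. The 7 genes left out were PRM2, HOP1, GAT4, YIL046W-A, YIL102C, YIL134C-A and YIR021W-A, with replicate 2 values from 0.08 to 0.99. As a check of the labels, RAD61, the standard name of WPL1, had log2 levels of 6.43 and 6.55 in the wild type arrays, here and below with replicate 1 first, and 3.96 and 4.44 in the deletion arrays. Both deletion values were at background, which makes the level at least 1.46-fold lower there. The mating type also followed the labels: STE2, the receptor made by a-cells, lay between 10.6 and 11.1, and STE3, the receptor made by alpha-cells, between 4.34 and 4.86, which is at background.

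The 181 genes had a median of 0.77 in replicate 2, a 1.71-fold higher level in the deletion, and of 0.00 in replicate 1. The middle 50% of genes in replicate 2 lay between 0.60 and 0.93, or 1.52-fold and 1.91-fold. Values above 0 were found for 179 of the 181 genes in replicate 2 and 91 in replicate 1, against 50% of genes of other chromosomes in replicate 2, which the centring sets. In 148 of 181 genes, deletion replicate 2 had the highest level of the 4 arrays, against 8.22% of genes elsewhere. A difference of 2-fold or more was reached by 37 genes, against 0.24% elsewhere. These shares describe the contrast that chose the genes. Between the arrays of 1 genotype, the chromosome IX median was 0.74 for deletion replicate 2 over deletion replicate 1 and 0.00 for wild type replicate 2 over wild type replicate 1. The medians of the other 15 nuclear chromosomes ran from -0.02 for chromosome VIII to 0.04 for chromosome I in replicate 2.

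**Figure D1:**
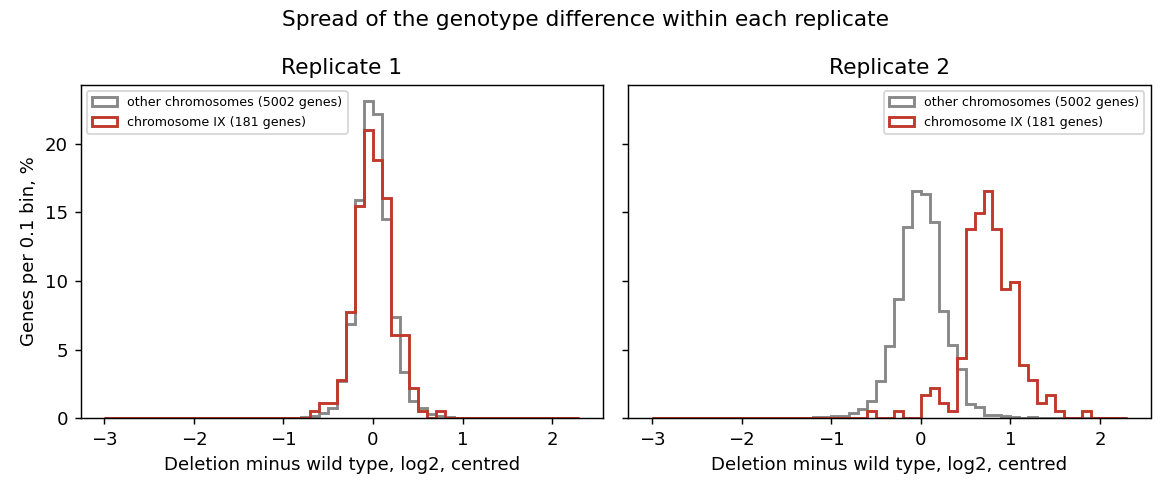
Share of genes (%, bins of 0.1) by genotype difference (deletion minus wild type, log2, centred on other chromosomes) in replicate 1, left, and replicate 2, right, for 181 chromosome IX genes and 5002 genes of other chromosomes. The outlines overlie each other in replicate 1, and in replicate 2 that of chromosome IX is displaced to a median of 0.77.

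Single genes scattered around the shift. The SD over chromosome IX genes was 0.31 in replicate 2, against 0.27 over genes of other chromosomes, and in replicate 1 it was 0.21 against 0.19. The interquartile range in replicate 2 was 0.33 against 0.32, so the middle genes of chromosome IX were about as close to their median as genes elsewhere to theirs. Within 0.2 of the median lay 106 of the 181 genes. Across the 181 genes, which are not independent replicates, the values of replicates 1 and 2 had Pearson r = 0.064 and Spearman rho = 0.009.

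Along the chromosome the shift ran from end to end. In consecutive blocks of 20 genes from the left telomere to the right, the median replicate 2 value lay between 0.71 and 0.86 in the 9 full blocks. The last block, 8 genes from YIR032C to YIR042C, had 0.96. The left arm had a median of 0.75 over 145 genes and the right arm 0.80 over 36. In replicate 1 the medians of the 9 full blocks lay between -0.05 and 0.03 and that of the last was 0.13. At the left end, the first 3 genes in order were PAU14, VTH1 and IMA3, with values of 0.15, 0.28 and 0.14. At the right end, HYR1 and GTT1, with 1.47 and 1.46, are adjacent genes.

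**Figure D2:**
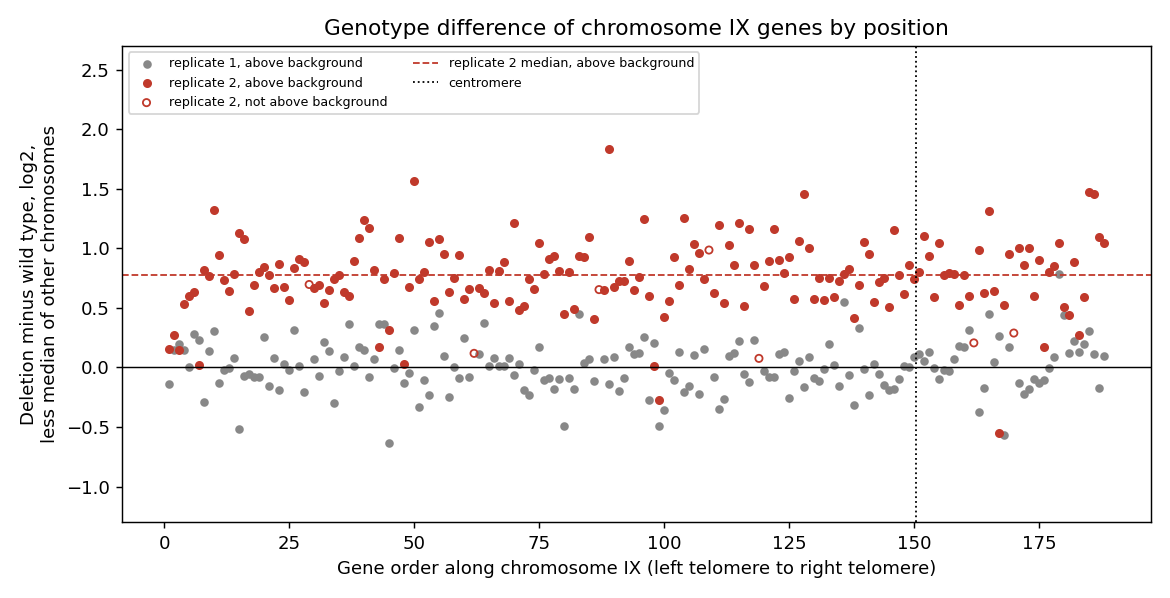
Genotype difference (log2, centred on other chromosomes) of each of the 188 chromosome IX genes in order along the chromosome, in replicate 1 (grey) and replicate 2 (red), with open symbols for the 7 genes not above background. Replicate 2 values lie around 0.77 from one telomere to the other, with single genes near or below 0 on both arms.

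The size of the difference varied with the brightness of the probe set. Over the 46 dimmest of the 181 genes, the median replicate 2 value was 0.70 above that of equally bright genes elsewhere (1.62-fold). In the next groups of 45 genes it was 0.82, 0.76 and, for the brightest, 0.86 (1.81-fold). The 46 dimmest also held 7 of the 10 genes furthest short of the chromosome median, and their SD was 0.38 against 0.20 in the next group. The manufacturer marks probe sets that match several transcripts by the endings _s_at and _x_at. PAU14, VTH1, IMA3 and the retrotransposon gene YIL082W-A were the 4 chromosome IX genes with such probe sets, and all 4 lay below the chromosome median, with a median of 0.21 against 0.78 over the 177 others. Whether these probe sets detect copies on other chromosomes was not tested, and the values of the 4 genes are uncertain to that extent. Gene length showed no such relation, with Spearman rho = -0.02 across the 181 genes.

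Beyond 0.5 above the chromosome median lay 7 genes, 3.87% of the 181, and beyond 0.5 below it lay 10, or 5.52%. Of the genes of other chromosomes, 2.72% and 2.84% were as far above and below their own median. The 7 were MAM33, POR2, HYR1, GTT1, TIM44, COA1 and MET28. MMF1 and ARC15, both with a deviation of 0.48, were just outside. The 10 were YIR018C-A, RGI2, YIL060W, POT1, HIS5, IMA3, PAU14, QDR2, DAL1 and LYS1. VTH1, whose deviation rounds to -0.50, and RPI1, with -0.46, were just outside. As these are the tails of the values that chose the genes, the counts have no test.

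With wild type replicate 2 as reference, mitochondrial proteins and redox enzymes stood first among the 7 genes more than 0.5 above the median. The share of such genes, 3.87%, was not far above the 2.72% elsewhere, so no functional theme is read from them. Against wild type replicate 1, the lists of mitochondrial proteins and redox enzymes described below lay under the chromosome median, at -0.27 and -0.22. MAM33, an acidic protein of the mitochondrial matrix, had log2 levels of 9.13 and 8.58 in wild type and 9.03 and 10.30 in the deletion. Its replicate 2 value of 1.83 (3.56-fold) was the highest of the chromosome, and deletion replicate 2 lay above each of the other 3 arrays by more than 1 on the log2 scale. POR2, the minor isoform of the mitochondrial porin, had 7.54 and 6.28 in wild type and 7.90 and 7.74 in the deletion. Here it was wild type replicate 2 that stood apart, below the other 3 arrays. TIM44, which tethers the import motor to the mitochondrial inner membrane channel, had 10.61 and 9.65 in wild type and 10.48 and 10.999 in the deletion. COA1, an assembly factor of cytochrome c oxidase, had 8.88 and 8.57 in wild type and 9.23 and 9.78 in the deletion, so that both deletion arrays lay above both wild type arrays. RSM25, of the small mitochondrial ribosomal subunit, lay 0.44 above the chromosome median.

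HYR1, a thiol peroxidase that senses peroxide, had 9.50 and 8.60 in wild type and 9.85 and 9.96 in the deletion. GTT1, a glutathione transferase, had 8.56 and 7.87 in wild type and 8.72 and 9.22 in the deletion. For both enzymes, deletion arrays lay above wild type arrays without overlap, and wild type replicate 2 was the lowest of the 4. MET28, a leucine zipper regulator of sulfur metabolism, had 6.75 and 5.88 in wild type and 7.24 and 7.09 in the deletion. Its wild type replicate 2 level was at background. With that array set to its limit the value was 1.21 instead of 1.32, and the deviation 0.43 instead of 0.54.

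In all 7 genes wild type replicate 2 lay below wild type replicate 1, after centring on other chromosomes. Since wild type replicate 2 is subtracted in the value that ranked the genes, the choice itself favours such an order. The difference of wild type replicate 2 over replicate 1 and the replicate 2 value, which share that array, had r = -0.413 across the 181 genes and r = -0.455 across the 5002 genes of other chromosomes. Set against wild type replicate 1 instead, deletion replicate 2 kept the chromosome median at 0.76. MAM33 alone of the 7 then stayed more than 0.5 above the median, at 0.60. COA1 was at 0.32 and GTT1 at 0.08, while MET28, TIM44, HYR1 and POR2 were between -0.38 and -0.12. This comparison crosses the date tags, and with it 26 genes lay beyond 0.5 above and 27 beyond 0.5 below the median. The share of genes elsewhere was not computed for it, so whether these counts are particular to chromosome IX is not known. Further down the order, deviations between 0.39 and 0.48 were found for MMF1, a mitochondrial matrix protein, ARC15 of the Arp2/3 complex, AYR1 of lipid synthesis, the BAR domain protein GVP36, PIG2, a candidate subunit of protein phosphatase 1, the cell wall protein SIM1 and TED1, of GPI anchor remodelling.

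**Figure D3:**
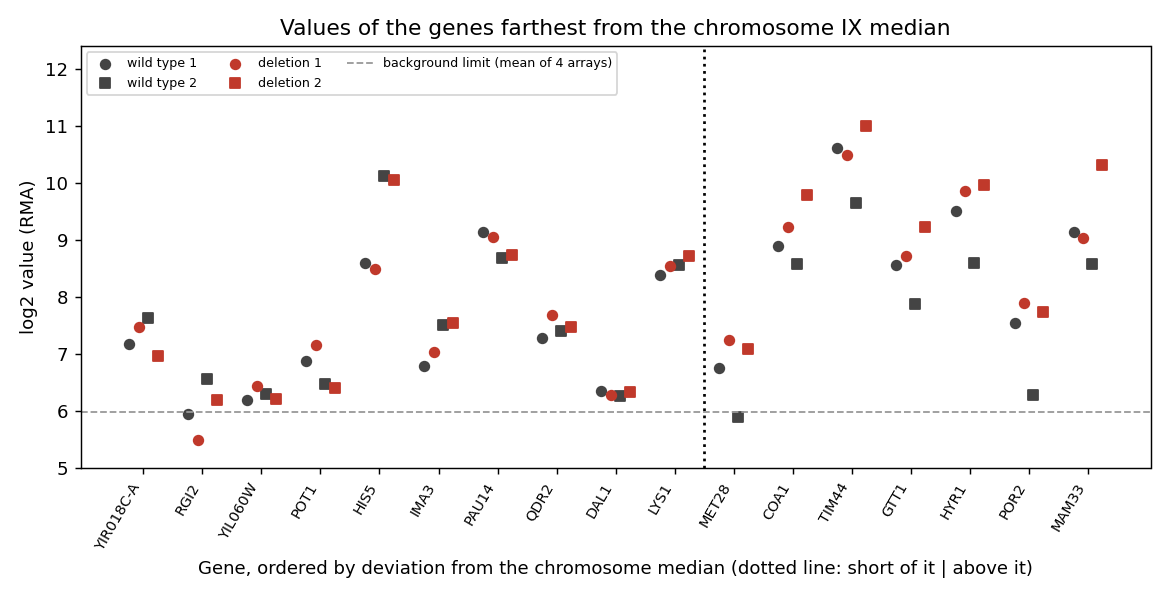
Log2 levels (RMA) in each of the 4 arrays for the 10 genes more than 0.5 short of the chromosome IX median in replicate 2 (left of the dotted line) and the 7 genes more than 0.5 above it (right). Circles are replicate 1 and squares replicate 2, wild type in grey and deletion in red. In genes on the right the grey square lies lowest, and in RGI2, HIS5, IMA3 and LYS1 both replicate 2 squares lie above both circles.

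The genes furthest short were a mixed group. YIR018C-A, a small open reading frame of no role known here, had log2 levels of 7.17 and 7.62 in wild type and 7.47 and 6.96 in the deletion. It was lowest in deletion replicate 2, and its value of -0.55 was the lowest of the chromosome. RGI2, a gene of respiratory growth, had 5.93 and 6.56 in wild type and 5.48 and 6.18 in the deletion, with both replicate 1 arrays at background. These 2 genes had the only replicate 2 values below 0 among the 181. YIL060W, of no role known here, had 6.19 and 6.29 in wild type and 6.44 and 6.20 in the deletion, all near the limit of background. POT1, the thiolase of peroxisomal fatty acid breakdown, had 6.88 and 6.48 in wild type and 7.15 and 6.39 in the deletion. Wild type and deletion overlapped for each of these 4 genes.

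HIS5, the aminotransferase of histidine synthesis, had 8.58 and 10.12 in wild type and 8.49 and 10.04 in the deletion. It differed between replicates by more than 1.5 on the log2 scale in both genotypes and had a replicate 2 value of 0.03. Against wild type replicate 1, HIS5 lay 0.88 above the chromosome median instead of 0.75 below it. LYS1, which makes lysine from saccharopine, had 8.37 and 8.56 in wild type and 8.55 and 8.72 in the deletion. DAL1, allantoinase, had 6.34 and 6.26 in wild type and 6.27 and 6.33 in the deletion, a range under 0.1. QDR2, a multidrug exporter, had 7.28 and 7.41 in wild type and 7.68 and 7.47 in the deletion. Its neighbour QDR1, a related exporter, had a replicate 2 value of 0.74, close to the chromosome median. PAU14, of the seripauperin family, and IMA3, an isomaltase, have the shared probe sets described above. In 8 of the 10 genes wild type replicate 2 lay above wild type replicate 1 after centring, an order that the choice of genes also favours. With wild type replicate 1 as reference, 8 of the 10 stayed below the median and 5 stayed more than 0.5 below it. RPI1, a transcription regulator, SPO22, a meiosis protein, PDR11, a sterol transporter, and VHR1, a regulator of biotin genes, followed with deviations from -0.46 to -0.35.

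Grouped by function, 15 lists of chromosome IX genes had medians from 0.62 to 1.04 in replicate 2, against 0.77 for the chromosome. The lists were chosen with results of these arrays known, and the medians are descriptions. Lowest was cytosolic translation, with 13 of 16 genes below the chromosome median and none more than 0.5 from it. RPL40A, which encodes ubiquitin fused to a ribosomal protein, had 0.47, threonyl-tRNA synthetase THS1 0.49 and RPL2B 0.57. RPL16A, RPL34B and RPS24B lay between 0.68 and 0.69. RPR2, a subunit of RNase P, was highest with 0.99. For amino acid, cofactor and sulfur metabolism the median was 0.63, and 9 of 14 genes lay below that of the chromosome. HIS6 had 0.57, LYS12 0.56 and SER33, of serine synthesis, 1.10.

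The highest list median was that of redox and stress enzymes, 1.04, with 4 of 6 genes above 0.77. Besides HYR1 and GTT1, the peroxiredoxin DOT5 had 1.05 and the cytochrome b5 reductase CBR1 1.03, while IRC24 had 0.59 and the phosphatase SDP1 0.74. The median of this list for wild type replicate 2 over replicate 1 was -0.62. Mitochondrial proteins outside metabolism had 0.93, with 10 of 12 genes above the chromosome median and YIA6, a carrier for NAD, lowest with 0.51. Their median for wild type replicate 2 over replicate 1 was -0.46. Against wild type replicate 1, these lists lay at -0.22 and -0.27 from the chromosome median, below it instead of above. The cytosolic translation list, with 0.28 for wild type replicate 2 over replicate 1, then lay at 0.17, above it instead of below.

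The secretory pathway, at 0.93 and with 13 of 20 genes above the chromosome median, stayed above it, at 0.28, against wild type replicate 1. So did the actin list, at 0.26, the proteasome list, at 0.10, and the allantoin list with DCG1, at 0.33. The cell wall and signalling lists fell below the median, at -0.07 and -0.12. RNA processing and replication rose above it, at 0.44 and 0.11. SEC24, the cargo-binding subunit of the COPII coat, had log2 levels of 8.68 and 8.78 in wild type and 9.17 and 9.75 in the deletion, a replicate 2 value of 1.08. EPS1, a disulfide isomerase of the endoplasmic reticulum, had 1.15, and GVP36 had 1.21. The lowest were VTH1, a relative of the sorting receptor Vps10, with 0.28, and APQ12, of the nuclear envelope, with 0.52. The actin list, with 7 of 10 genes above the chromosome median of 0.77, had ARC15 at 1.25, the capping protein subunit CAP2 at 1.16 and tropomyosin TPM2 lowest at 0.57. Signalling genes lay close together, from 0.64 for RRD1, an activator of phosphatases, to 0.90 for BCY1, the inhibitory subunit of protein kinase A. Proteasome and ubiquitin genes, from NAS2 at 0.76 to the ubiquitin protease UBP7 at 0.95, were as close.

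**Figure D4:**
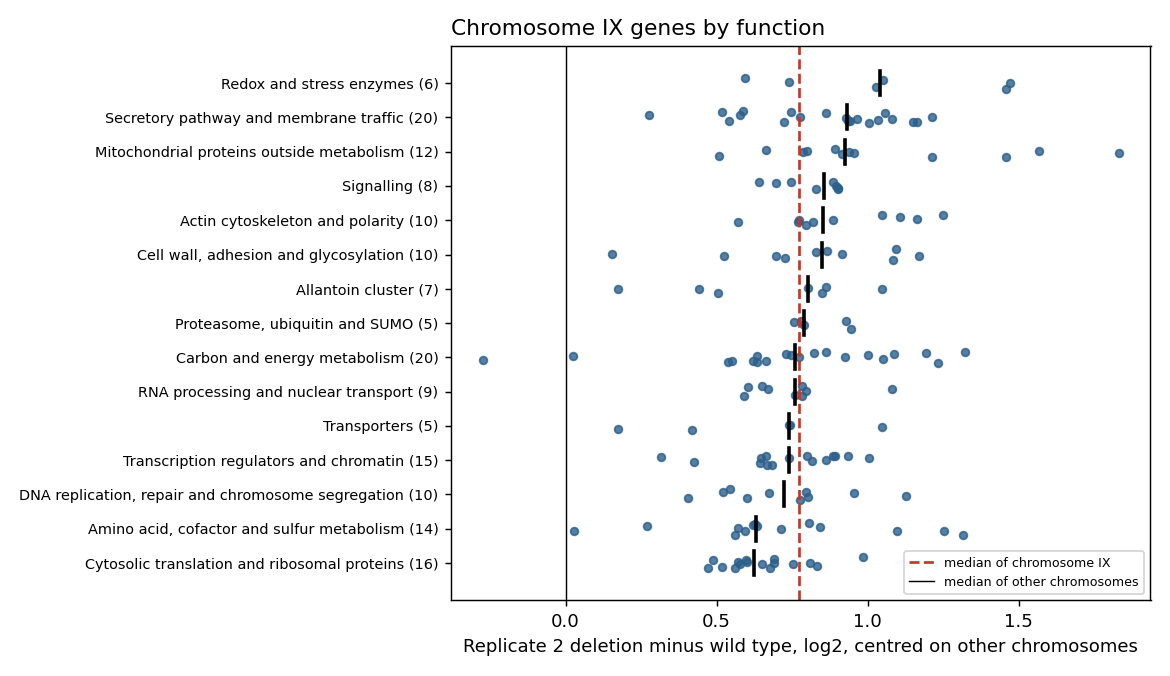
Replicate 2 genotype difference (log2, centred on other chromosomes) of chromosome IX genes above background in 15 functional lists, with the number of genes in parentheses, points for genes and black bars for list medians. Medians run from 0.62 for cytosolic translation to 1.04 for redox enzymes, around the dashed line at the chromosome median of 0.77.

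Cell wall genes had a median of 0.85 and ran from PAU14 to SIM1, at 1.17. BAR1, the protease with which a-cells degrade alpha-factor, had 9.87 and 9.74 in wild type and 9.75 and 10.36 in the deletion, a value of 0.73. Carbon and energy genes had 0.76, or 0.80 over the 18 above background in all 4 arrays, and the widest range, from -0.27 for RGI2 to 1.32 for COA1. SUC2, invertase, had 0.64 and KGD1, of the citric acid cycle, 1.09. Genes of replication and chromosome segregation had 0.72, from SPO22 at 0.40 to the replication initiation factor MCM10 at 1.13. RNA processing genes had 0.76, from the splicing factor IST3 at 0.59 to MLP2, of the nuclear pore basket, at 1.08. Transcription regulators had 0.74, with RPI1 lowest at 0.32 and RPB3, a subunit of RNA polymerase II, highest at 1.003. Of the 5 transporters, QDR2 was lowest and the vacuolar transporter AVT7 highest at 1.05. The 14 genes in no list had a median of 0.59, with 11 below the chromosome median.

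The allantoin genes sit next to each other on the right arm and are repressed in rich medium. With the activator DAL81, the 6 genes above background in all 4 arrays had a median of 0.65, and 3 lay above the chromosome median. They did not share 1 value: DAL1 had 0.17, DAL3, ureidoglycolate lyase, 0.44, DAL7, a malate synthase, 0.51, DAL4, the allantoin permease, 0.80, DAL2, allantoicase, 0.85 and DAL81 0.86. DCG1, of unknown function within the cluster, had log2 levels of 5.67 and 5.80 in wild type, both at background, and 6.50 and 6.74 in the deletion. It passed the filter through the deletion arrays alone, and including it moved the list median to 0.80. Its deletion level was at least 1.53-fold higher, and both deletion arrays lay above both wild type arrays.

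Subunits encoded on chromosome IX were set beside the partners of the same complex or pathway on other chromosomes. The rule used the partners only through the median of all other chromosomes. In replicate 2 the 25 chromosome IX genes of 23 complexes and pathways had a median of 0.89, and their 149 partners above background had 0.01, with the middle 50% between -0.16 and 0.17. In replicate 1 the medians were 0.01 and 0.02. Of the 25 genes, 24 lay above every one of their partners. The exception was HIS5, at 0.03, below HIS2 at 0.12. The chromosome IX genes were chosen by this contrast and genes elsewhere were centred on 0, so such an order largely restates the shift. The gap between a chromosome IX gene and the median of its partners ranged from 0.40 for HIS5 to 1.23 for TIM44, with a median of 0.86, and lay between 0.5 and 1 for 17 of the 25.

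Values of the chromosome IX genes varied along with those of their partners. Across the 25 genes, the replicate 2 value and the median of the partners had Pearson r = 0.739 and Spearman rho = 0.674. All points come from the same 2 arrays, and the pairs of the histidine and lysine pathways share their partners. These pathways had the lowest partner medians, and HIS5 and LYS1 the lowest values of the 25 genes. The coefficients without these pathways were not computed. The SD of the 25 values was 0.31 and that of the gaps to the partner median 0.21. At the low end, the partners of HIS5 and HIS6 in histidine synthesis had a median of -0.37, with HIS4 at -1.05, and those of LYS1 and LYS12 in lysine synthesis -0.23, with LYS9 at -1.07. The gap was 0.40 for HIS5, 0.94 for HIS6, 0.50 for LYS1 and 0.79 for LYS12. DSN1, of the MIND kinetochore complex, had 0.52, and its partners MTW1, NNF1 and NSL1 had a median of -0.21. At the high end, partners of TIM44 in the import machinery had a median of 0.23, those of ARC15 0.21 and those of SEC24 0.23. ARC15 had a gap of 1.04 and SEC24 of 0.85. CAP2, in contrast, had 1.16 where its only listed partner CAP1 had -0.05.

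**Figure D5:**
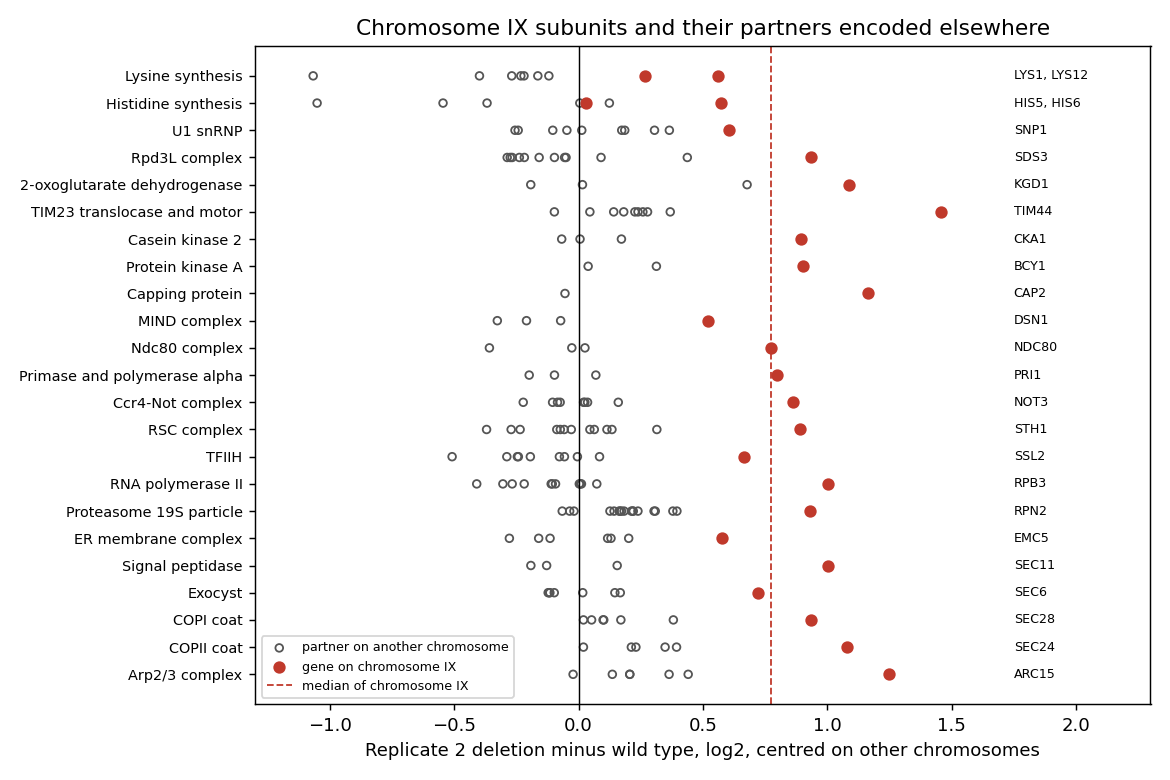
Replicate 2 genotype difference (log2, centred on other chromosomes) of 25 chromosome IX genes (filled, named at the right) and 149 partners on other chromosomes (open) in 23 complexes and pathways. Filled points lie right of every open point in their row, except HIS5.

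The other subunits kept to the same range. RPN2, of the proteasome base, had 0.93 with its 17 partners between -0.07 and 0.40. SEC28 of the COPI coat had 0.93, SEC6 of the exocyst 0.72, SEC11 of signal peptidase 1.0045 and EMC5 of the membrane protein insertase EMC 0.58. In the nucleus, RPB3 had 1.003 where the other RNA polymerase II subunits had a median of -0.11, and SSL2, a helicase of TFIIH, had 0.67 where its partners had -0.19. STH1, the motor of the RSC remodeller, had 0.89, SDS3 of the Rpd3L deacetylase 0.93, NOT3 of Ccr4-Not 0.86, SNP1 of the U1 particle 0.60, the primase subunit PRI1 0.80 and NDC80 of the kinetochore 0.77. The kinase subunits CKA1 and BCY1 had 0.89 and 0.90, and KGD1 had a partner median of 0.02.

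Paralogs give a like comparison of genes with related functions. In 42 pairs 1 gene lay on chromosome IX and the other elsewhere, both above background in the mean over the 4 arrays. GIP2, the partner of PIG2, was at background in both replicate 2 arrays. The chromosome IX genes had a median of 0.82 and the others 0.09, and the chromosome IX gene was higher in 40 pairs. The exceptions were RGI2, at -0.27 against 1.06 for RGI1, and GPP1, a glycerol phosphatase, at 0.93 against 0.999 for GPP2. The order in the 40 pairs likewise restates the shift that chose the chromosome IX genes. PFK26 and PFK27, which make fructose 2,6-bisphosphate, both had 0.63. RGI1 had log2 levels of 9.35 and 6.73 in wild type and 9.14 and 7.69 in the deletion, so both of its replicate 2 arrays lay below both of replicate 1. In the pair SER33 and SER3, which catalyse the same step of serine synthesis, SER33 had 1.10 and SER3 -1.06. SER3 had 6.85 and 9.13 in wild type and 6.99 and 7.96 in the deletion. The 5 ribosomal protein genes with a paralog elsewhere all lay below the chromosome median, with a median of 0.68, and their partners had a median of 0.11. RPL2A, the partner of RPL2B, had 0.35 and RPS24A, whose probe set is marked as shared, 0.25. How alike the genes of these pairs are was not computed, and how far each probe set also detects the partner was not measured.

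In replicate 1, the control, 6 of the 181 genes were more than 0.4 above and 5 more than 0.4 below the median of other chromosomes, against 2.6% and 1.38% of genes elsewhere. Among genes with both replicate 1 arrays above background, 4 lay above and 4 below, against 2.39% and 1.33% elsewhere. These left out DCG1 and YIL014C-A, whose wild type level was at background, and RGI2, for which both levels were. With so few genes, no count is read as differing from its share elsewhere, and the genes are named as single descriptions. The 4 above were SEC24, MET28, SEC28 and DAL7. SEC24 and SEC28, of the 2 coats of early secretory traffic, had 0.46 and 0.44. The 4 below were RPI1, with -0.64, the adhesin FLO11 with -0.57, MCM10 with -0.52 and YIL082W-A. MCM10 had log2 levels of 8.24 and 7.34 in wild type and 7.76 and 8.36 in the deletion, so its genotype difference had opposite signs in the 2 replicates. FLO11 had 7.20 and 7.29 in wild type and 6.67 and 7.71 in the deletion, also with opposite signs. SEC28 had 9.36 and 10.47 in wild type and 9.84 and 11.29 in the deletion, higher in the deletion within each replicate and higher in replicate 2 within each genotype.

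Over all 4 arrays, limma called 0 of the 188 genes as different between the genotypes at an adjusted p under 0.05, and 0% of all 5449 genes. At an unadjusted p under 0.05 it had 3 genes higher and 0 lower on chromosome IX, and 0.184% of all genes. A fit that blocks on the replicate number also called 0 genes in limma, with 32 higher and 1 lower on chromosome IX at an unadjusted p under 0.05, against 2.86% of all genes. The smallest adjusted p on chromosome IX was 1 without and 0.996 with the block. The fit averages a replicate with the shift and one without it, and holds the contrast that chose the genes, so these counts say nothing on whether the genes differed in replicate 2.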

How the data were processed

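The deposited table holds log2 expression for each probe set. Per the submitters' processing notes, the authors used RMA and affy, whose versions were not given in the sources used. RMA corrects background, equalises the arrays by quantiles and summarises probes. Differences are therefore relative to other transcripts, and array signal can understate true ratios. Of 10928 probe sets, 5498 matched 5449 S. cerevisiae genes through the platform's gene IDs and NCBI's R64 gene table. The 1746 named S. pombe probe sets gave the limit of background. Probe sets of a gene were averaged, and each chromosome IX gene had 1. Chromosome and order came from systematic names. No genome, coordinate or sequence was used, so the planned protein identity of paralogs was not computed and paralog pairs are given by their values.

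Groups came from the sample titles. The shared date tags pair same-numbered arrays, whose deviations from the group means correlated with r = 0.747 across genes. Differences were computed in Python 3.11.15 and the genotype test in R 4.3.3 with limma 3.58.1 (two-sided, Benjamini-Hochberg over 5449 genes, 2 residual degrees of freedom). Both steps were tested on simulated data. In the first, genes were raised by 2 on the log2 scale, more than any deviation found here, so counts near the limit of 0.5 were not tested. The limma check concerned the size of the estimated change, not how many changed genes were called. A p-value here reflects only how these arrays spread, which may be technical, and the number of arrays limits the precision. Named genes were the 15 farthest above and below the chromosome median, the extremes of each functional list, complex subunits and replicate 1 departures beyond 0.4. Ribosomal and other pairs named beside these, SUC2, QDR1 and BAR1 among them, were chosen after their values were seen. The members and all lists were chosen with earlier results of these data known.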

Additional observations from a re-analysis of the deposited data

How the results depend on the processing

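The replicate 2 median of chromosome IX stayed between 0.76 and 0.78, and the replicate 1 median at 0.00, under other filters on dim genes, the brightest probe set per gene and quantile normalization over the other chromosomes. Leaving out an array gave replicate 2 medians of 0.76 without wild type replicate 2 and 0.0431 without deletion replicate 2, where deletion replicate 1 stands in. The count of genes more than 0.5 above the median ranged from 6 to 8 and that below from 8 to 12 under the filters, probe and normalization settings and with the median of equally bright genes as reference. At 0.4 the counts were 13 and 12, and at 0.6 they were 5 and 9. Without wild type replicate 2, a setting added after seeing the data, they were 26 and 27. Shares of genes elsewhere were not computed at 0.4, at 0.6 or without wild type replicate 2, so these counts have no background beside them. Of 130 recomputed deviations of the 17 named genes, 118 moved by less than the SD over genes elsewhere, 6 moved further and 6 reversed. Most of the 118 could hardly move, as filters, probe choice and reference median left a gene's own levels unchanged. The 6 that moved further were YIR018C-A, RGI2, POT1, PAU14, GTT1 and MAM33, all without wild type replicate 2. Restricting the functional lists to genes above background in all 4 arrays, also added after seeing the data, changed the medians of the allantoin list from 0.80 to 0.65, of carbon and energy from 0.76 to 0.80 and of amino acid metabolism from 0.6304 to 0.6274. All 6 reversals came without wild type replicate 2: HIS5 at 0.88, IMA3 at 0.18, MET28 at -0.24, TIM44 at -0.19, HYR1 at -0.12 and POR2 at -0.38, and the cause was not tested. Limma called 0 chromosome IX genes in all settings, the replicate block and each array left out included. With 1 array per genotype and replicate, no deviation of a single gene could be tested.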
